A study of Mus musculus with 31 samples.

Results

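The 36 genes described here encode proteins of skeletal muscle fibres and were measured in whole mammary tissue of mice. They are named by symbol, and all 36 were found among the 22609 gene symbols of both expression tables. They fall into 17 genes of fast fibres, 6 genes of slow fibres and 13 genes that both fibre types use. No measured value was used to choose them, although the choice was made with earlier results of these data known.

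The study measured RNA in mammary tissue taken without lymph nodes at day 6 of pregnancy and on the day of parturition, under 12 h after delivery, in mice that differed in how many functional Stat5a and Stat5b alleles they had. STAT5A and STAT5B are transcription factors that prolactin activates in mammary epithelium. Null mice were Stat5abfl/fl;MMTV-Cre, in which the Cre of MMTV-Cre line A removes both genes. This transgene acts mainly in mammary epithelium and not in all cells. B mice carried 1 Stat5b allele (Stat5abnull/Stat5a-) and A mice carried 1 Stat5a allele (Stat5abnull/Stat5b-). BB mice (Stat5a-/-) kept 2 Stat5b alleles, AB mice (Stat5ab+/null) kept 1 allele of each gene, and AABB mice had all 4 and were wild type or Stat5abfl/fl. In B, A, BB and AB mice the alleles are changed in every cell, muscle included. All samples had the mixed 129SV::FVB/N::C57BL/6 strain background, and the labels give no age.

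The labels list 18 samples at day 6, with 3 in each genotype, and 13 at parturition, with 3 in B and 2 in the other genotypes. The deposited values are FPKM, fragment counts divided by transcript length and by library size, in 1 column per genotype and stage, which is a mean over the samples of that genotype. The 12 columns summed to between 432576 and 1190588 FPKM, and read depth is unknown. With no value per sample, no replicate spread, standard deviation or test could be computed, and whether 1 sample or all samples of a genotype carried a high value cannot be read from a mean. A difference below is therefore a difference between deposited means. Levels are given as scaled FPKM, where a median-ratio factor between 0.794 and 1.13 brings the 6 columns of a stage to a common level. Each ratio is given as the log2 of (scaled FPKM + 1) in one column over that in another, so differences of low genes are understated. A gene was called different at 2-fold or more, so a gene below 1 scaled FPKM in AABB could never be called lower than AABB. Stat5a was at 12.5 and 8.6 scaled FPKM in the columns labelled B at day 6 and parturition, and Stat5b at 10.6 and 10.3 in the columns labelled A, so transcript of the missing gene was still counted in them. Null held Stat5a at 13.6 and 6.96 and Stat5b at 9.04 and 7.65, and BB held Stat5a at 3.67 and 4.3. AABB had 33.6 and 70.8 for Stat5a and 16.7 and 25.4 for Stat5b.

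Skeletal muscle contracts by the sliding of myosin thick filaments along actin thin filaments within the sarcomere. Calcium released from the sarcoplasmic reticulum binds troponin C, and troponins I and T then free actin for myosin. Fast fibres build these parts from Myh4, Myh1 or Myh2, Tnni2, Tnnc2 and Tnnt3 and rely on glycolysis, while slow fibres use Myh7, Tnni1, Tnnc1 and Tnnt1 and are rich in myoglobin. The mammary gland has smooth-muscle-like myoepithelial cells but no skeletal muscle fibres, and in mice the gland lies under the skin beside body wall and skin muscle.

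RefSeq promoter windows, 250 bases before to 50 bases after a start on build GRCm38.p6, were found for 27 of the 36 genes (33 windows). Of these, 5 are printed because the results turn on their genes: Acta1 and Ckm, which had the highest levels of the 36, and the fast myosin genes Myh4, Myh1 and Myh2, whose proportions differed between columns. Capitals mark matches, on either strand, to the E-box CANNTG, which myogenic basic helix-loop-helix factors bind, and to the CArG box bound by serum response factor.
Acta1, chr8:123894726-123895025, minus strand: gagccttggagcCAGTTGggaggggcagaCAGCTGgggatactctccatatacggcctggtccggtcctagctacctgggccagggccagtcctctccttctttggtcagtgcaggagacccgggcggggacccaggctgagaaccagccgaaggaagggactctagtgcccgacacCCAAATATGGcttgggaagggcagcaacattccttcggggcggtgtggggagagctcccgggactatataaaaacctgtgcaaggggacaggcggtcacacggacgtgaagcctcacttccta
Ckm, chr7:19410844-19411143, plus strand: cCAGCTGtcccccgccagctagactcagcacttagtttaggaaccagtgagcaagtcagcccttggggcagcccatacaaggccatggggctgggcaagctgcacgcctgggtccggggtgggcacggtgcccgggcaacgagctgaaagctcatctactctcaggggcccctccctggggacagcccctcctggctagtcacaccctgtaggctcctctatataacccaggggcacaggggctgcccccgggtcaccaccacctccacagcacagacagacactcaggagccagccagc
Myh4, chr11:67237562-67237861, plus strand: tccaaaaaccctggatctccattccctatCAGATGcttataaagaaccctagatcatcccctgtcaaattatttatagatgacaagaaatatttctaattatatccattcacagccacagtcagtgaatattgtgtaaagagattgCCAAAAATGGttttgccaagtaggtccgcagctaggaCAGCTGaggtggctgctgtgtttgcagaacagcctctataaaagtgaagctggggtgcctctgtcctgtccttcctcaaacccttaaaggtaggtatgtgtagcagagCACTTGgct
Myh1, chr11:67199852-67200151, plus strand: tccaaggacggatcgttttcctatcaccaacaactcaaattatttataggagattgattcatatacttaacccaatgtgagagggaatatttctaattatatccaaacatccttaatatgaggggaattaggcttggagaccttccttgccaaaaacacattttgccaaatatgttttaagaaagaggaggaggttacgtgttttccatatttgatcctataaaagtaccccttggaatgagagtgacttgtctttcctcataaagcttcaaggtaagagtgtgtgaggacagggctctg
Myh2, chr11:67170777-67171076, plus strand: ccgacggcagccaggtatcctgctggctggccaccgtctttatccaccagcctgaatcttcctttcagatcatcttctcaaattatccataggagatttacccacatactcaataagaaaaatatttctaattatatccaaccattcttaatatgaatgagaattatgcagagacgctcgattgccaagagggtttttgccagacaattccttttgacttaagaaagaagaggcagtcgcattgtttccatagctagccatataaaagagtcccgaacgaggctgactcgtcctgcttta

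The Myh4 window held 3 E-boxes and 1 CArG box, and the Acta1 window held 2 and 1. The Ckm window held 1 E-box, and the windows of Myh1 and Myh2 held neither motif. Over all 33 windows of the 36 genes, 81.8% held CANNTG, against 72.3% of the 32851 windows in the table. The E-box CAGCTG, which is 1 form of CANNTG, was in 48.5% of the windows of muscle genes and in 16.3% of all windows. The CArG box was in 12.1% of the windows of muscle genes (Acta1, Ldb3 and Myh4) and in 1.63% of all windows. TATAAA was in 21.2% and 13.6%, and the core sequence bound by MEF2 factors in 3.03% (Ttn) and 0.557%. Some windows of the same gene overlap (Ldb3, Mb, Myh7 and Tnni1), so a match can be counted more than once, as was the CArG box of Ldb3. These matches describe the letters of the windows only.

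At day 6 of pregnancy the column of AB mice held by far the most muscle transcript. The 36 genes made up 1.97% of all FPKM in AB, 0.148% in Null, 0.0201% in B, 0.0327% in A and 0.0474% in BB, against 0.0436% in AABB. AB had the highest level of 31 of the 36 genes, Null had the second highest of 33, and B had the lowest of 27. On the day of parturition the order of the genotypes was another one. The share was 1.30% in Null, 0.714% in B, 0.707% in A, 0.00527% in BB and 0.00592% in AB, against 0.0247% in AABB. Null was highest for 27 genes and A for 8, AABB had rank 4 for 31, and BB or AB was lowest for 20 and 13 genes.

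**Figure D1:**
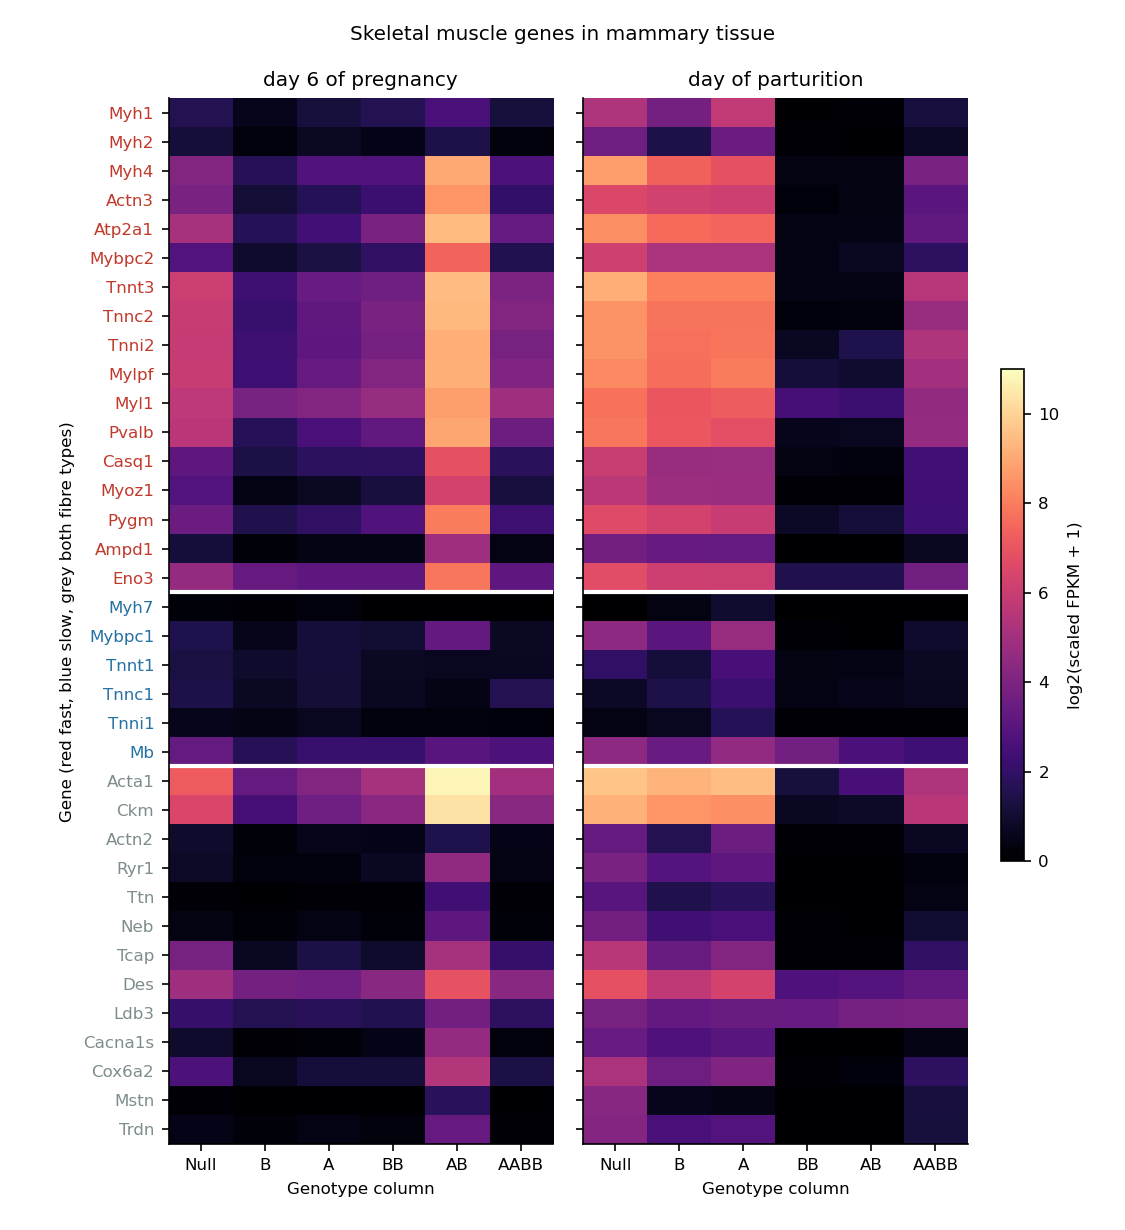
Heat map of the 36 muscle genes (rows, fast fibre genes at the top, slow fibre genes in the middle, genes of both fibre types at the bottom) in the 6 genotype columns of each stage, as log2(scaled FPKM + 1). Each cell is 1 deposited mean. AB is bright at day 6, and Null, B and A are bright at parturition, where BB and AB are dark. The slow fibre genes Myh7, Tnnt1, Tnnc1 and Tnni1 stay darker than the fast ones in the bright columns, and Ldb3 has nearly the same colour across parturition.

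Among thin filament genes at day 6, Acta1, which encodes skeletal alpha-actin, was at 144 scaled FPKM in Null, 9.05 in B, 16 in A, 33.6 in BB and 1799.9 in AB, against 30.3 in AABB. Tnnc2, the fast troponin C that binds calcium, was at 61, 3.4, 8.29, 14.1 and 664 in Null, B, A, BB and AB, against 16.2 in AABB. Tnni2, the fast inhibitory troponin, was at 58.2, 3.82, 7.93, 12.8 and 559 in the same order, against 13.2 in AABB. In all of these AB stood apart above every other column, Null came next, and B and A lay below AABB. Tnnt3, the fast troponin that anchors the complex to tropomyosin, was at 66.5 in Null, 3.77 in B, 9.61 in A, 11.4 in BB and 719 in AB, against 14.8 in AABB. The log2 ratio of AB to AABB was 5.85 for Acta1, 5.27 for Tnnc2, 5.30 for Tnni2 and 5.51 for Tnnt3.

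The slow troponins did not follow. Tnnt1 was at 1.46 scaled FPKM in Null, 0.887 in B, 1.23 in A, 0.689 in BB and 0.588 in AB, against 0.618 in AABB. Tnnc1, the slow and cardiac troponin C, was at 1.73, 0.669, 1.15, 0.618 and 0.376 in Null, B, A, BB and AB, against 2.05 in AABB, so that AB was the lowest column. Its log2 ratio of AB to AABB was -1.15, the opposite of the direction in which most of the 36 genes differed. Tnni1 was between 0.203 in AB and 0.606 in A, with 0.188 in AABB. In AB, the fast gene made up 99.96% of the Tnni2 and Tnni1 sum, 99.94% of the Tnnc2 and Tnnc1 sum and 99.92% of the Tnnt3 and Tnnt1 sum, against 98.6%, 88.8% and 96.0% in AABB.

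Of the thick filament genes, Myh4, the heavy chain of the fastest (type IIB) fibres, was at 16.3 scaled FPKM in Null, 2.27 in B, 6.02 in A, 5.98 in BB and 506 in AB, against 5.49 in AABB (log2 ratio of AB to AABB 6.29). Myh1, the heavy chain of type IIX fibres, was at 2.09, 0.503, 1.35, 2.09 and 4.93 in Null, B, A, BB and AB, against 1.32 in AABB. Myh2, the heavy chain of type IIA fibres, was at 1.19, 0.197, 0.708, 0.414 and 1.69, against 0.224 in AABB. The excess in AB was thus large for Myh4 and small for its neighbours (log2 ratios 1.36 for Myh1 and 1.14 for Myh2). Myh7, the slow heavy chain, was at or below 0.221 in every column. Fast Mybpc2, which cross-links thick filaments, was at 6.19 in Null, 0.871 in B, 1.53 in A, 2.74 in BB and 170.2 in AB, against 1.96 in AABB. Its counterpart Mybpc1, first described in slow fibres, was at 1.76, 0.47, 1.3, 1.07 and 8.81, against 0.703 in AABB, and was the only slow fibre gene at least 2-fold higher in AB than in AABB. The light chain genes Mylpf and Myl1 were at 569.5 and 441 in AB, against 15.9 and 28.4 in AABB.

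Z-disc genes differed in the same direction but by unequal amounts. Actn3, the alpha-actinin of fast fibres, was at 14.2 scaled FPKM in Null, 1.13 in B, 2.15 in A, 3.63 in BB and 380.1 in AB, against 2.94 in AABB (log2 ratio of AB to AABB 6.59). Actn2, the alpha-actinin of all fibres, was at 0.924, 0.14, 0.451, 0.402 and 1.81, against 0.391 in AABB. Des, the intermediate filament desmin that smooth muscle also makes, was at 28.6 in Null, 12.5 in B, 11.4 in A, 19.1 in BB and 123 in AB, against 18.8 in AABB. The log2 ratio of AB to AABB was thus 2.65 for Des and 1.02 for Actn2, well short of Actn3. Ttn, the giant spring titin, was at 4.14 in AB and at or below 0.116 in every other column. Tcap, which caps titin, was at 13.4, 0.655, 1.67, 0.922 and 33.1 in Null, B, A, BB and AB, against 3.23 in AABB, and was the only one of the 36 genes called in BB, where it was lower (log2 ratio to AABB -1.14).

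Genes of calcium handling and energy supply were also highest in AB at day 6. Atp2a1, the fast calcium pump of the sarcoplasmic reticulum, was at 33.3 scaled FPKM in Null, 2.11 in B, 4.22 in A, 14 in BB and 689 in AB, against 9.06 in AABB. Pvalb, the calcium buffer parvalbumin, was at 47.1, 2.29, 5.09, 8.42 and 498, against 10.7 in AABB. Ckm, the muscle creatine kinase, was at 87.9, 4.54, 11.3, 19.6 and 1328, against 18.8 in AABB (log2 ratio of AB to AABB 6.07). Ryr1, the calcium release channel, Cacna1s, its voltage sensor, and Trdn, which anchors the release complex, were at 21.4, 23.5 and 9.44 in AB and below 1 in every other column. Mb, the oxygen store myoglobin, was again different, at 9.02 in Null, 2.22 in B, 3.46 in A, 3.37 in BB and 6.82 in AB, against 5.37 in AABB. Mstn, the secreted inhibitor of muscle growth, was at 2.44 in AB and at or below 0.112 elsewhere.

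Counted over the list at day 6, 27 of the 36 genes had at least 1 FPKM in at least 2 of the 6 columns, and ratios were called only for these. The 9 that did not were Myh7, Tnni1, Actn2, Ryr1, Ttn, Neb, Cacna1s, Mstn and Trdn, of which 7 had over 1 scaled FPKM in AB alone. Myh2 and Ampd1 passed only through Null and AB. In AB, 24 genes were at least 2-fold higher than in AABB and 1 lower, where 6.78% and 5.01% of the 13367 genes tested were. In Null, 17 were higher and 0 lower (2.21% and 2.09% of all genes). In B, 0 were higher and 10 lower (7.56% and 5.18%), in A 0 and 0 (7.01% and 5.54%), and in BB 0 and 1 (5.12% and 3.60%). The ratios describe means of 3 samples each and share the AABB column, and no test of them was possible.

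The median log2 ratio to AABB over the 17 fast genes was 1.46 in Null, -0.89 in B, -0.36 in A, 0.02 in BB and 5.27 in AB. Over the 6 slow genes it was 0.47, -0.03, 0.35, 0.05 and 0.02, and over the 13 genes of both fibre types 0.47, -0.26, -0.09, 0.01 and 3.01. The median over all genes tested lay between -0.02 and 0.04 in these comparisons. The fast genes in AB therefore lay far from AABB while the middle of the slow genes did not. AB and BB, which both keep 2 functional alleles, were compared directly as well. AB was at least 2-fold higher than BB in 22 of the 27 genes that passed the filter and lower in 0, where 1.73% and 0.988% of all genes were. With all 36 genes included, the median log2 ratio was 5.24 over the fast genes, -0.05 over the slow genes and 3.12 over the others.

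**Figure D2:**
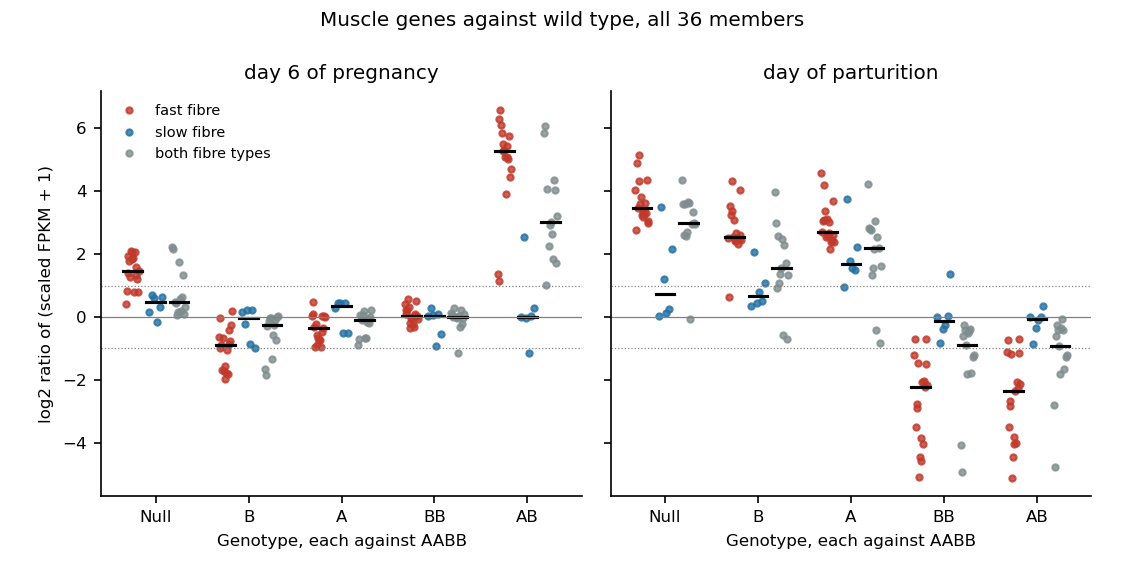
Log2 ratio of scaled FPKM + 1 to AABB for all 36 genes at each stage, 1 point per gene, with black bars at the median of the fast (red), slow (blue) and shared (grey) genes and dotted lines at 2-fold. Fast genes in AB have a median of 5.27 at day 6 and -2.36 at parturition, and those in Null a median of 1.46 and 3.46.

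On the day of parturition the thin filament genes were high in Null, B and A. Acta1 was at 799.7 scaled FPKM in Null, 617 in B, 730.4 in A, 1.35 in BB and 4.63 in AB, against 38.1 in AABB. Tnnc2 was at 363, 219, 224, 0.186 and 0.204 in Null, B, A, BB and AB, against 25.1 in AABB. Tnnt3 was at 561, 272, 271, 0.386 and 0.363, against 45.6 in AABB. In each of these the 3 genotypes with at most 1 functional allele were highest, AABB lay between, and BB and AB were lowest. Tnni2 showed the same order, at 369 in Null, 208 in B, 231 in A, 0.628 in BB and 1.77 in AB, against 38 in AABB. For Tnnt3 the log2 ratio of BB to AABB was -5.07 and that of AB to AABB -5.10, the lowest among the 36 genes.

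Slow troponins were low at parturition too, but A was their highest column. Tnnt1 was at 2.84 scaled FPKM in Null, 1.28 in B, 4.78 in A, 0.283 in BB and 0.32 in AB, against 0.671 in AABB. Tnnc1 was at 0.723, 1.71, 3.63, 0.312 and 0.449 in Null, B, A, BB and AB, against 0.567 in AABB. Tnni1 was at 0.317, 0.588, 2.14, 0.123 and 0.114, against 0.107 in AABB. The fast gene made up 99.1% of the troponin I sum, 98.4% of the troponin C sum and 98.3% of the troponin T sum in A, against 99.72%, 97.8% and 98.5% in AABB.

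Several thick filament and Z-disc genes were likewise highest in Null and low in BB and AB. Myh4 was at 431 scaled FPKM in Null, 166 in B, 119 in A, 0.29 in BB and 0.298 in AB, against 13.6 in AABB. Mybpc2 was at 71, 36.5, 36.3, 0.312 and 0.621, against 2.64 in AABB. Actn3 was at 89.5, 76.1, 68.4, 0.191 and 0.279, against 7.21 in AABB. The titin gene Ttn was at 6.89 in Null, 1.85 in B, 2.4 in A, 0.0169 in BB and 0.0121 in AB, against 0.343 in AABB, so that even this very long transcript was counted in Null. Des was at 116, 52, 77.8, 5.62 and 6.5, against 8.51 in AABB, a smaller distance between BB or AB and AABB (log2 ratios -0.52 and -0.34) than that of the fast genes.

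Calcium handling and energy genes followed. Atp2a1 was at 337 scaled FPKM in Null, 192 in B, 176 in A, 0.309 in BB and 0.36 in AB, against 8.61 in AABB, and its log2 ratio of Null to AABB, 5.14, was the highest of the 36 genes at parturition. Ckm was at 587, 385, 344, 0.611 and 0.78, against 47.8 in AABB. Pvalb was at 238, 134, 109.6, 0.51 and 0.572, against 23.9 in AABB. Pygm, the muscle glycogen phosphorylase, was at 98.4 in Null, 77.6 in B, 61.2 in A, 0.726 in BB and 1.22 in AB, against 3.85 in AABB. In all 4 of these, Null was highest and BB was lowest.

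At parturition 34 of the 36 genes passed the filter, all but Myh7 and Tnni1. Myh2, Ampd1, Mybpc1, Tnnt1, Tnnc1, Actn2, Ryr1, Ttn, Neb and Cacna1s reached 1 FPKM only in columns among Null, B and A. They thus passed only through columns where they were high, and their low level in AABB left almost no room for a call of lower. In Null 32 of the 34 were at least 2-fold higher than in AABB and 0 lower, where 19.1% and 10.7% of the 13061 genes tested were. In B 28 were higher and 0 lower (18.2% and 10.1% of all genes), and in A 32 were higher and 0 lower (17.3% and 10.01%). In BB 1 was higher and 21 lower (8.07% and 5.37%), and in AB 0 were higher and 21 lower (10.2% and 5.45%). AB against BB gave 1 higher gene, Acta1, and 1 lower gene, Mb (1.06% and 0.720% of all genes). The median log2 ratio to AABB over the fast genes was 3.46 in Null, 2.55 in B, 2.69 in A, -2.24 in BB and -2.36 in AB, and over the slow genes 0.73, 0.65, 1.68, -0.13 and -0.06. Over the 13 genes of both fibre types it was 2.98, 1.55, 2.18, -0.88 and -0.92, and over all genes tested between 0.04 and 0.11.

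The levels at parturition depend on what else the columns held. Genes of milk proteins took 0.707% of all FPKM in Null, 1.64% in B, 4.37% in A, 41.9% in BB and 44.0% in AB, against 65.5% in AABB, and their part in the results was not tested beyond the scaling. In unscaled FPKM the median gene was 0.50 (log2) higher in Null than in AABB, 0.53 in B, 0.50 in A, 0.30 in BB and 0.23 in AB, and the log2 ratios of the muscle genes move by about as much. The shares of all genes higher and lower than AABB then became 28.6% and 5.99% in Null, 29.1% and 4.88% in B, 27.2% and 4.88% in A, 12.3% and 3.06% in BB, and 13.6% and 3.35% in AB. At day 6 the unscaled shares were 1.69% and 2.54% in Null, 4.27% and 4.97% in BB, and 5.05% and 7.46% in AB, and scaling to the sum outside milk and muscle genes gave 11.6% and 2.96% in B and 10.4% and 3.33% in A. For AB against BB at parturition, unscaled FPKM gave 0.773% and 0.835% of all genes, and the sum outside milk and muscle genes 1.83% and 0.551%. In bulk tissue, fewer cells of a type and less RNA per cell cannot be told apart.

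The proportion of the myosin heavy chains differed between the columns with much muscle transcript. Myh4 made up 98.7% of the summed level of Myh1, Myh2, Myh4 and Myh7 in AB at day 6, when the sum was 512 scaled FPKM, against 78.0% of 7.03 in AABB. At parturition it made up 89.8% of 480.1 in Null, 91.9% of 180.3 in B and 64.2% of 186 in A, against 86.3% of 15.7 in AABB. In A the rest was Myh1 with 29.7% and Myh2 with 5.56%, where Null had 7.97% and 2.26%, B had 6.94% and 0.958%, and AABB had 8.83% and 4.80%. The sums of BB and AB at parturition, 0.41 and 0.459, were too low to read a proportion from. These genes share sequence: of the 50-base windows of their GENCODE transcripts, 13.3% in Myh4, 21.7% in Myh1 and 22.3% in Myh2 were found in at least 1 of the other 2, and how the authors assigned such fragments is not given in the sources used here. The corresponding share was 0% for Acta1, Tnni2, Tnnc2, Tnnt3, Mybpc2, Eno3 and Atp2a1 against the related genes searched.

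**Figure D3:**
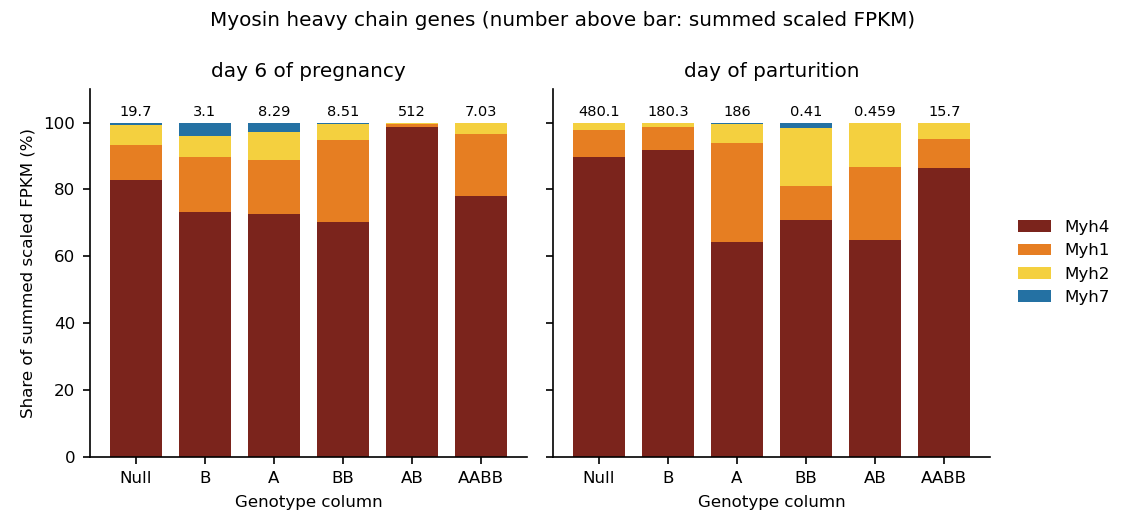
Share of the summed scaled FPKM of 4 myosin heavy chain genes taken by each, in percent, for the 6 genotype columns of each stage, with the sum printed above each bar. Myh4 takes 98.7% in AB at day 6 and 64.2% in A at parturition, where Myh1 takes 29.7%.

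Relative to the sum of the 17 fast genes, the muscle transcript of the 4 columns that held most of it (AB at day 6, and Null, B and A at parturition) was much alike in its fast part. The fast sums were 5914 scaled FPKM in AB at day 6, and 3372 in Null, 1859 in B and 1899 in A at parturition. Per 1000 FPKM of this sum, Tnnc2 took 112 in AB at day 6, and 108, 118 and 118 in Null, B and A at parturition. Of the 17 fast genes, 13 varied under 2-fold over these 4 columns, with a median of 1.43 between the highest and the lowest column. None of the 6 slow genes varied under 2-fold, and their median was 27.7. These ratios have no pseudocount, and 4 of the 6 slow genes were below 1 scaled FPKM in AB at day 6. The spread of the slow genes thus rests in part on very low levels, unlike that of the fast genes. The sum of the fast genes was 352 times that of the slow genes in AB at day 6, and 73.8 times in Null, 90.7 times in B and 32.5 times in A at parturition. Genes in a sum share its value, and the stages came from separate tables, so these numbers are a description.

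**Figure D4:**
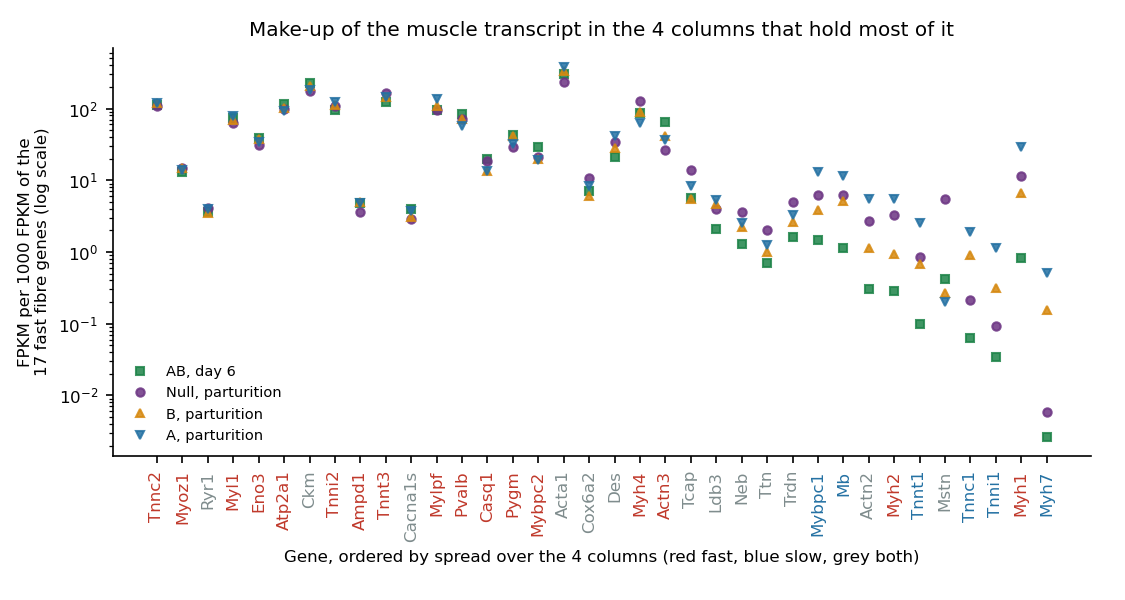
Level of each of the 36 genes per 1000 FPKM of the summed 17 fast genes (log scale) in the 4 columns with most muscle transcript, ordered by the ratio of the highest to the lowest column. Genes at the left, 19 of which vary under 2-fold (13 of them fast), lie close together, and those at the right, among them the slow genes, Myh1, Myh2, Actn2 and Mstn, spread by 8.74 to 194 times. No pseudocount was added, and Myh7, Tnni1, Tnnc1 and Tnnt1 were below 1 scaled FPKM in AB at day 6.

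A and B mice each keep 1 functional allele, and their columns at parturition held nearly equal fast sums. This comparison was added after the data were seen. In A, 6 of the 36 genes were at least 2-fold higher than in B and 0 were lower, where 0.360% and 0.345% of the 13061 genes tested were. They were Myh1 at 55.2 scaled FPKM in A, against 12.5 in B, Myh2 at 10.3, against 1.73, and Actn2 at 10.5, against 2.09. The other 3 were slow fibre genes: Mybpc1 at 24.7 in A, against 7.11 in B, Mb at 22.1, against 9.52, and Tnnt1 at 4.78, against 1.28. Their log2 ratios were between 1.13 for Mb and 2.06 for Myh1, while Myh4 was lower in A, at 119, against 166 in B (log2 ratio -0.47). The median log2 ratio of A to B was -0.01 over the fast genes, 1.06 over the slow genes and 0.25 over the others, and -0.01 over all genes tested. Among 8 further slow fibre genes, 2 of the 4 that passed the filter were at least 2-fold higher in A, and 0 were lower. They were Csrp3, a Z-disc protein of slow and cardiac fibres, at 11.7 in A, against 1.17 in B, and Myoz2, a Z-disc protein of slow fibres, at 2.63, against 0.534. Myl2, the slow and ventricular regulatory light chain, did not pass the filter and was at 6.11 in A, against 0.679 in B. The A column is a mean of 2 samples and the B column of 3.

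**Figure D5:**
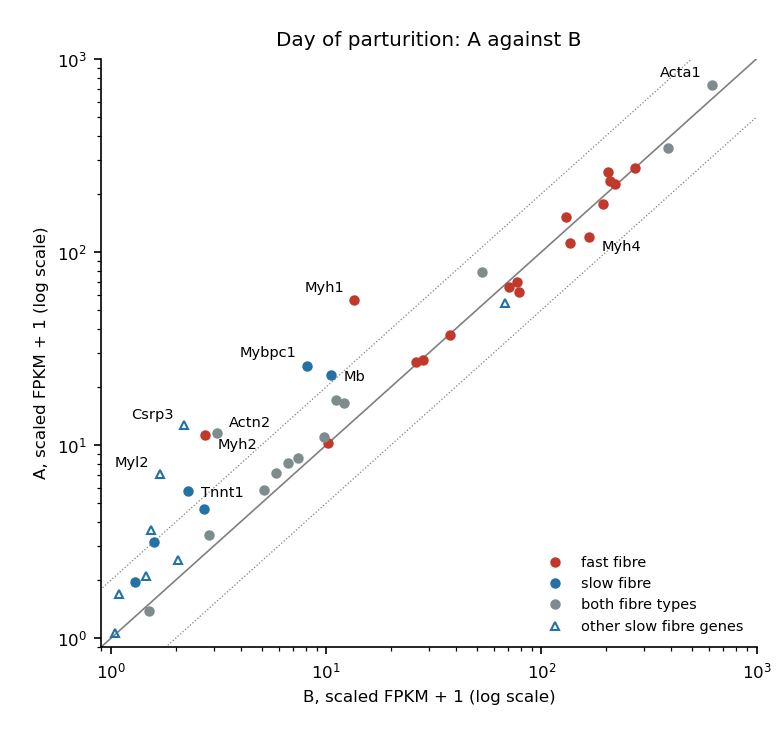
Scaled FPKM + 1 of the 36 muscle genes in A (vertical) against B (horizontal) on the day of parturition, on log scales, with 8 further slow fibre genes as open triangles. The solid line marks equality and dotted lines 2-fold. Most fast genes lie at the solid line, and Myh1, Myh2, Mybpc1, Mb, Actn2 and Tnnt1 lie above the upper dotted line.

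A few genes did not share the profile of the list. Correlated over the 6 columns of a stage with the mean log2 profile of the other members, 23 of 27 genes at day 6 and 29 of 34 at parturition had a Pearson r above 0.9. At day 6 the others were Myh2 (0.877), Mb (0.677), Tnnt1 (-0.267) and Tnnc1 (-0.381). Mb at parturition had an r of 0.646, being at 20.9 scaled FPKM in Null, 9.52 in B, 22.1 in A, 11.7 in BB and 5.32 in AB, against 3.93 in AABB, and it was the only gene of the list at least 2-fold higher in BB than in AABB (log2 ratio 1.36). Ldb3, which encodes a Z-disc protein, was at 13.2, 8.78, 10, 9.74 and 13.1 in Null, B, A, BB and AB at parturition, against 13.7 in AABB, with an r of -0.160, although it had followed the list at day 6 (0.974). These columns share samples with all other results, and 6 points per gene support no more than a description.

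Mstn differed from most of the list in B and A. At parturition it was at 18.3 scaled FPKM in Null, 0.503 in B, 0.381 in A, 0.00766 in BB and 0.0213 in AB, against 1.44 in AABB. B and A thus lay below AABB for Mstn (log2 ratios -0.70 and -0.82), though 28 and 32 of the other genes were at least 2-fold higher there. Per 1000 FPKM of the fast sum, Mstn took 5.44 in Null, 0.271 in B and 0.201 in A at parturition, and 0.413 in AB at day 6.

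Other skeletal muscle genes were compared in the same way. Of 48 further skeletal muscle genes, 22 passed the filter at day 6. Of these, 20 were at least 2-fold higher in AB than in AABB and 0 lower, where 6.78% and 5.01% of all genes were. Several of them, among them Myot, Kbtbd10, Smyd1, Mylk2, Hrc, Ckmt2, Hfe2 and Rpl3l, passed only through Null and AB. They could not be called lower. At parturition 45 passed, of which 43 were higher in Null, 26 in B and 35 in A, where 19.1%, 18.2% and 17.3% of all genes were. In these columns 0 were lower (10.7%, 10.1% and 10.01% of all genes). In BB 0 were higher and 4 lower, where 8.07% and 5.37% of all genes were. In AB 1 was higher and 3 lower (10.2% and 5.45% of all genes). Of the 48, 33 at day 6 and 32 at parturition were below 1 scaled FPKM in AABB, where no call of lower is possible. The median level of the 48 at parturition was 0.655 in AABB, against 0.0617 in BB and 0.0765 in AB. Pgam2, the muscle phosphoglycerate mutase, was at 83.3 scaled FPKM in AB at day 6, against 3.86 in AABB. Of 20 genes of myogenic factors and satellite cells, 4 passed the filter at day 6. Of these 1, Mef2c, was at least 2-fold higher in AB than in AABB (6.78% of all genes), at 10 against 3.12. Mef2c was as high in B and A, at 10 and 9.98, while Mef2d and Chrnb1 were lower in AB by less than 2-fold (log2 ratios -0.11 and -0.54). The median log2 ratio of AB to AABB over the 4 was 0.33. Of the genes that did not pass at day 6, Myf6 was at 2.34 in AB at day 6, against 0.037 in AABB, and Myod1 at 0.646, against 0.0254. At parturition 7 of the 20 passed, of which 5 were higher in Null, 4 in B, 4 in A and 0 in BB and AB, and 0 were lower. Of the 20, 16 were then below 1 scaled FPKM in AABB, where no call of lower is possible. The shares of all genes in these comparisons are those given above. Myf6 was at 2.67 in Null, 0.775 in B, 1.51 in A and 0 in BB and AB, against 0.128 in AABB. Pax7 and Myf5, which define muscle stem cells, were at or below 0.0643 in every column of both stages.

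Of 11 cardiac genes 2 passed the filter at each stage, the summed level was 3.91 to 10.2 scaled FPKM over the 12 columns, and Myh6, the cardiac alpha heavy chain, was at or below 0.216 and the natriuretic peptide gene Nppa at or below 0.193. The 2 that passed were Myl4, the atrial light chain, at 1.47 to 5.45 over the 12 columns, and Tnni3, cardiac troponin I. Tnni3 was highest in AABB at both stages, at 0.216 in AB, against 2.58 in AABB, at day 6, and at 1.25 in Null, against 7.97 in AABB, at parturition. Smooth muscle and myoepithelial genes (13, of which 12 passed) were present everywhere. They summed to 737 in Null, 1092 in B, 1178 in A, 1024 in BB and 1045 in AB, against 616 in AABB, at day 6, so that AB did not stand apart. At parturition they summed to 768, 1474, 1305, 2568 and 1888, against 1152, an order unlike that of the skeletal muscle genes. Tendon and fascia genes (10) summed to 33.5 in AB, against 47 in AABB, at day 6, with a range of 17.7 to 53.1 over the columns of that stage, and 24.2 to 71.4 at parturition. Epidermal genes (9) summed to 5.23 to 10.8 at day 6 and 11.9 to 28.5 at parturition.

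Markers of 2 other tissues were mostly higher in Null, B and A than in AABB at parturition, as the muscle genes were. All 10 white adipocyte genes were at least 2-fold higher in Null, B and A than in AABB, where 19.1%, 18.2% and 17.3% of all genes were. In BB and in AB 6 of 10 were higher (8.07% and 10.2% of all genes). The adipocyte genes summed to 30110.3 scaled FPKM in Null, 20185 in B, 21879 in A, 9460.0 in BB and 8221 in AB, against 4714 in AABB. BB and AB thus lay above AABB for fat genes and below it for muscle genes. Of 10 Schwann cell and nerve genes, 8 passed, and 7 were higher in each of Null, B and A, 1 in BB and 0 in AB, while 1 was lower in Null, B and BB and 0 in A and AB. Of all genes, 10.7% were lower in Null, 10.1% in B, 10.01% in A, 5.37% in BB and 5.45% in AB. Sox10, a factor of Schwann cells, was lower in Null and B than in AABB (log2 ratios -1.87 and -1.13). The 10 genes summed to 286 in Null, 213 in B, 221 in A, 126 in BB and 145 in AB, against 154 in AABB. At day 6 the adipocyte sum was 47423 in Null, 24156 in B, 24664 in A, 22519 in BB and 29827 in AB, against 20349.5 in AABB, and the Schwann cell and nerve sum was 250.2 in AB, against 287 in AABB. Brown adipocyte genes summed to 624, 139, 143, 129 and 189 in Null, B, A, BB and AB, against 1619 in AABB, at day 6. At parturition the brown adipocyte sum was 111, 78.7, 76.4, 338 and 260.3, against 1878 in AABB, unlike the order of the muscle genes. Of the 8 brown adipocyte genes that passed, 2 were higher and 3 lower in each of Null, B and A. In BB 0 were higher and 2 lower, and in AB 0 and 4. The shares of all genes are those given above for parturition. Luminal epithelial genes (10, all passing) summed to 1616 in Null, 1320.4 in B, 1209 in A, 1376 in BB and 929 in AB, against 2110.5 in AABB, at day 6, so that AB was lowest. Of them, 7 were at least 2-fold lower in AB than in AABB, as were 4 in Null, 7 in B, 6 in A and 3 in BB. Of all genes, 5.01% were lower in AB, 2.09% in Null, 5.18% in B, 5.54% in A and 3.60% in BB. At parturition the luminal genes summed to 1341 in Null, 2433 in B, 2538 in A, 3306 in BB and 2891 in AB, against 2953 in AABB. The part of these tissues in the muscle values was not tested.

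Ranked over all genes, the muscle list stood out at the top of the AB column at day 6. Only 75 of the 13367 genes tested (0.561%) were at least 2-fold higher in AB than in each of the 5 other columns. Of these, 22 belong to the 36 genes (15 fast, 1 slow and 6 of both fibre types), 17 to the other muscle lists and 36 to neither, and 16 of the 20 with the largest margin belong to the 36. Ampd1, among the 22, had passed the filter only through Null and AB. Those in neither were led by Cdsn, which was among the 10 with the largest margin, and by Myoc, Tmem38a, Dhrs7c and Igf2. The lists do not hold every muscle gene, so a gene in neither may still be made by muscle. Null, B and A were each at least 2-fold above BB, AB and AABB at parturition for 128 of 13061 genes (0.980%), of which 27 belong to the 36, 23 to the other muscle lists and 78 to neither. Among the 27, Ampd1, Mybpc1, Ryr1, Ttn, Neb and Cacna1s had passed the filter only through Null, B and A, the columns this rule asks to be high. AABB was at least 2-fold above both BB and AB for 475 genes (3.64%), of which 21 belong to the 36 and 3 to the other muscle lists.

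The genes outside the list whose profile was most like the mean profile of the list, by Pearson r over the 6 columns of a stage, were led at day 6 by Pgam2 (r = 0.998), Eef1a2 (0.998), Dhrs7c (0.995), Rpl3l (0.994) and Fitm1 (0.993). They were followed by Mlf1, 9130011J15Rik, Unc45b, Rtn2 and Myot, the last with an r of 0.990. Eef1a2, a translation elongation factor of muscle and neurons, was at 3.89 scaled FPKM in Null, 0.125 in B, 0.354 in A, 1.08 in BB and 42.9 in AB, against 1.11 in AABB. At parturition the 10 were Zbtb8os, Cmya5, Tuba8, Dhrs7c, Dgat1, Kbtbd10, Eef1a2, Trim72, Ppm1m and Ppm1b, with r between 0.987 and 0.992. The measure does not weigh the size of a difference: Zbtb8os was at 23.5 in Null, 23.1 in B, 23.6 in A, 19.4 in BB and 19.7 in AB, against 21.4 in AABB, while Cmya5, which encodes a costamere protein, was at 10.7, 5.22, 6.58, 0.169 and 0.15, against 0.9 in AABB. Only Dhrs7c and Eef1a2 were among the 10 at both stages.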

How the data were processed

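Poly(A) RNA of mammary tissue was sequenced on an Illumina HiSeq after TRIzol extraction, per the labels' protocols. Per the submitters' processing notes, CASAVA and TopHat were used with build mm9; their versions, the tool behind the FPKM values and its annotation are not given in the sources used here. The deposited values are FPKM per gene symbol, as the authors' mean per genotype and stage. Of values of at least 1 FPKM, between 57.9% and 62.6% had decimals ending in a recurring 3 or 6 in columns with 3 listed samples, and 0.0961% to 0.173% in columns with 2. At day 6 the labels list 3 samples per genotype, whereas the protocol names 2 mice.

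The 6 columns of a stage were brought to a common level with median-ratio factors, taken from genes of 1 FPKM or more in all 6 (11733 genes at day 6, 10864 at parturition). Genes reaching 1 FPKM in 2 or more columns were compared by log2 ratios of scaled FPKM + 1 and called at 2-fold, in 13 comparisons, with Python 3.11.15, numpy 2.4.6 and pandas 2.3.3. The calculation was checked on simulated data. The planned limma analysis needs a value per sample and was not used. Depth is unknown, so no counting interval was computed. Alternatives were a pseudocount of 0.1, no filter, a filter at 5 FPKM, no scaling and scaling to the sum outside milk and muscle genes. Members, the 16 gene lists and the rule for named genes were chosen with earlier results of these data known. That rule takes both members of each fast and slow pair, the myosin heavy chains, Acta1, Ckm, Ttn, Des, Mb, Pvalb and Mstn, any member opposite to its list by 2-fold, and the 10 other genes per stage with the most similar profile. Other genes named were chosen after their values were seen. Promoter sequences are from RefSeq on GRCm38.p6, a later build than mm9, and no position was carried between the builds.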

Additional observations from a re-analysis of the deposited data

Results flagged for a closer look

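B and AB lay on opposite sides of AABB at the 2 stages for many of the muscle genes. In B, 10 of the 27 genes that passed the filter at both stages were at least 2-fold higher than in AABB at parturition and at least 2-fold lower at day 6, where 0.862% of the 12757 genes compared at both stages were. They were Atp2a1, Tnnt3, Tnnc2, Tnni2, Mylpf, Myl1, Pvalb, Acta1, Ckm and Tcap. In AB, 19 of the 27 were at least 2-fold lower than in AABB at parturition and at least 2-fold higher at day 6, where 0.337% of all genes were, among them Myh4, Actn3, Acta1 and Ckm. The difference between stages was not tested, since each value is a mean with no replicates in the tables.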

How the results depend on the processing

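The counts of muscle genes called in the 13 comparisons were recomputed under 5 alternatives. Of 130 recomputed counts, 121 stayed within 1.5 times the reported one and 9 did not. Medians over the genes that passed were recomputed for the fast list without Myh1, Myh2 and Myh4 and for the slow list without Mybpc1, and of these 20 values 1 changed sign: the slow median of AB against AABB at day 6 was -0.03 without Mybpc1, against 0.14 with it. With a pseudocount of 0.1, the number lower than AABB at day 6 became 19 in B, 2 in A and 2 in BB, and the number higher in A became 1. At parturition it gave 1 lower gene in B and 1 in A, and 2 higher genes for AB against BB. With a filter at 5 FPKM, 0 genes were lower in AB than in AABB at day 6, since Tnnc1 was then left out. With scaling to the sum outside milk and muscle genes, 0 genes were lower in AB than in BB at parturition. A count cannot change sign, so these counts do not show whether a single gene changed direction. The alternatives for A against B at parturition were added after the data were seen. No paired analysis was possible because the tables hold 1 mean per genotype, and for the same reason no sample could be left out. Depth is unknown, so levels below 1 FPKM are read as low only.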

Other observations

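Genes made by developing or regenerating fibres were compared too. Myh8, the perinatal myosin heavy chain, was at 0.202 scaled FPKM in Null, 1.27 in B, 1.81 in A, 0.0136 in BB and 0.00938 in AB at parturition, against 0.00441 in AABB. Myh3, the embryonic heavy chain, was at 0.0378, 0.22, 0.374, 0 and 0, against 0 in AABB. B and A were the highest columns for both, while Null was the highest for Myh4. At day 6, Myh8 was at or below 0.101 and Myh3 at or below 0.0556 in every column, AB being the highest for both. All of these levels are low, and Myh8 and Myh3 were picked after their values were seen.

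Sln, which encodes the calcium pump regulator sarcolipin, was at 3.21 scaled FPKM in Null, 0.0827 in B, 0.697 in A and 0 in BB and AB at parturition, against 0.102 in AABB. Null was the highest column for Sln and for Mstn, whereas Myl2 and Csrp3 were highest in A. Sln was also picked after its values were seen.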
